A study of Mus musculus with 6 samples.

Results

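Collagens, laminins and nidogens of the extracellular matrix were measured in sorted cells of the mouse retina. The members are every gene whose symbol in the array's annotation names a collagen chain, a laminin chain or a nidogen, less Col25a1, Col24a1, Col23a1, Col13a1, Col9a1 and Col22a1, 6 collagen symbols that the rule leaves out. This gave 48 genes of the 18193 measured. By role, 20 are basement membrane members (the collagen IV, XV and XVIII chains, the laminins and the nidogens), 10 are fibrillar collagens and 18 are other collagens. Of the 48 members, 38 lay above background on at least 1 array and 24 on all 6.

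Basement membranes are thin sheets on which cells rest. Laminin trimers of an alpha, a beta and a gamma chain form one network, collagen IV trimers form another, and nidogens tie the networks together. In the retina such sheets lie under the vitreous surface and around each blood vessel, where endothelial cells and pericytes share one. Fibrillar collagens form the rope-like fibres of loose connective tissue, and collagen VI forms beaded filaments beside them.

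The 6 arrays hold 3 groups of 2, all from retinas of C57BL/6 mice at postnatal day 6 whose cells were freed with papain and sorted by flow cytometry. The Hb9 group and the Drd4 group each hold GFP+ Thy1+ cells from the mouse line of that name, which are known to label ON-OFF direction-selective ganglion cells. Cells of the Thy1 group were picked by an antibody to Thy1, which sits on the surface of ganglion cells in general, with no selection on GFP. The 2 arrays of each group came from separate litters, so p-values measure the spread between such arrays. How many animals went into an array and how GFP is driven in each line are not given in the labels. Every RNA sample, those of the Thy1 group included, passed through 2 rounds of amplification.

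Values are log2 intensities unless stated otherwise, differences are given on the log2 scale with the standard error from limma, and n = 2 arrays in each group. A gene was called at an adjusted p under 0.05 in limma, after Benjamini-Hochberg adjustment over all genes. The background reference of an array is its highest control probe set among those for the bacterial genes Dap, Lys, Phe, Thr and Trpn. If that exceeded the array's median over all probe sets, Trpn only was to be used. The reference ran from 4.95 to 5.38. Where arrays of a line lay at background, a fold is a bound that takes those arrays at their reference, and a difference is that of the measured values. Median intensities of the arrays ran from 45.5 to 47.7 on the linear scale, and 17 or 18 of 18 retinal ganglion cell genes lay above background on each array. Thy1 itself read 11.24 to 11.78 and Rbpms, an RNA-binding protein of ganglion cells, 10.35 to 10.63. The Drd4 replicates stood apart from each other in genes of the vessel wall and of microglia. The 14 pericyte and vessel wall genes summed to a linear intensity of 1398 on Drd4 replicate 1 and 522 on Drd4 replicate 2, against 1841 to 2215 in Hb9 and 8823 to 10083 in Thy1. Most of that gap lay in Rgs5, without which the sums were 673 and 490. The median difference of all 14 genes from Thy1, Rgs5 included, was -1.93 and -2.28. The 13 microglial genes summed to 3022 and 1129 on the same arrays. Members that differed between those Drd4 arrays are therefore given with and without each.

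The matrix members that passed the test against the general Thy1 sort were mostly lower in cells of the GFP lines. In Hb9 against Thy1, 11 of 48 members were lower and 1 was higher, where 3.19% of all genes were lower and 3.52% higher (6.71% in either direction). In Drd4 against Thy1, 11 members were lower and 1 was higher, where 3.96% of all genes were lower and 1.51% higher (5.47% in either direction). The largest falls were in Col3a1, Nid1 and Col4a1, with 2 nidogens, 2 collagen IV chains, 3 laminin chains, 3 fibrillar collagens and Col6a3 making up the lower members in each case. The comparisons share the Thy1 arrays, so they are set side by side and not read as separate evidence. In bulk samples such as these, fewer cells of a type and less RNA per cell cannot be told apart.

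By class, 7 of 20 basement membrane members were lower in Hb9 and 7 in Drd4, as were 3 of 10 fibrillar collagens in each line and 1 of 18 other collagens in each. The higher members were Lama3 in Hb9 and Col6a1 in Drd4. Most members did not pass, and the median difference of all 48 was -0.08 in Hb9 and -0.07 in Drd4, beside 0.04 and 0.02 over all genes. The median was -0.18 and -0.07 in the basement membrane class, -0.30 and -0.21 in the fibrillar class, and -0.02 and -0.01 in the other collagens. Leaving out Hb9 replicate 2 reduced the members lower in Hb9 to 6 and the fibrillar ones to 1. The mean of both lines against Thy1 had 12 members lower, 8 of them of the basement membrane, and 1 higher, where 3.54% of all genes were lower and 1.55% higher (5.09% in either direction).

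**Figure D1:**
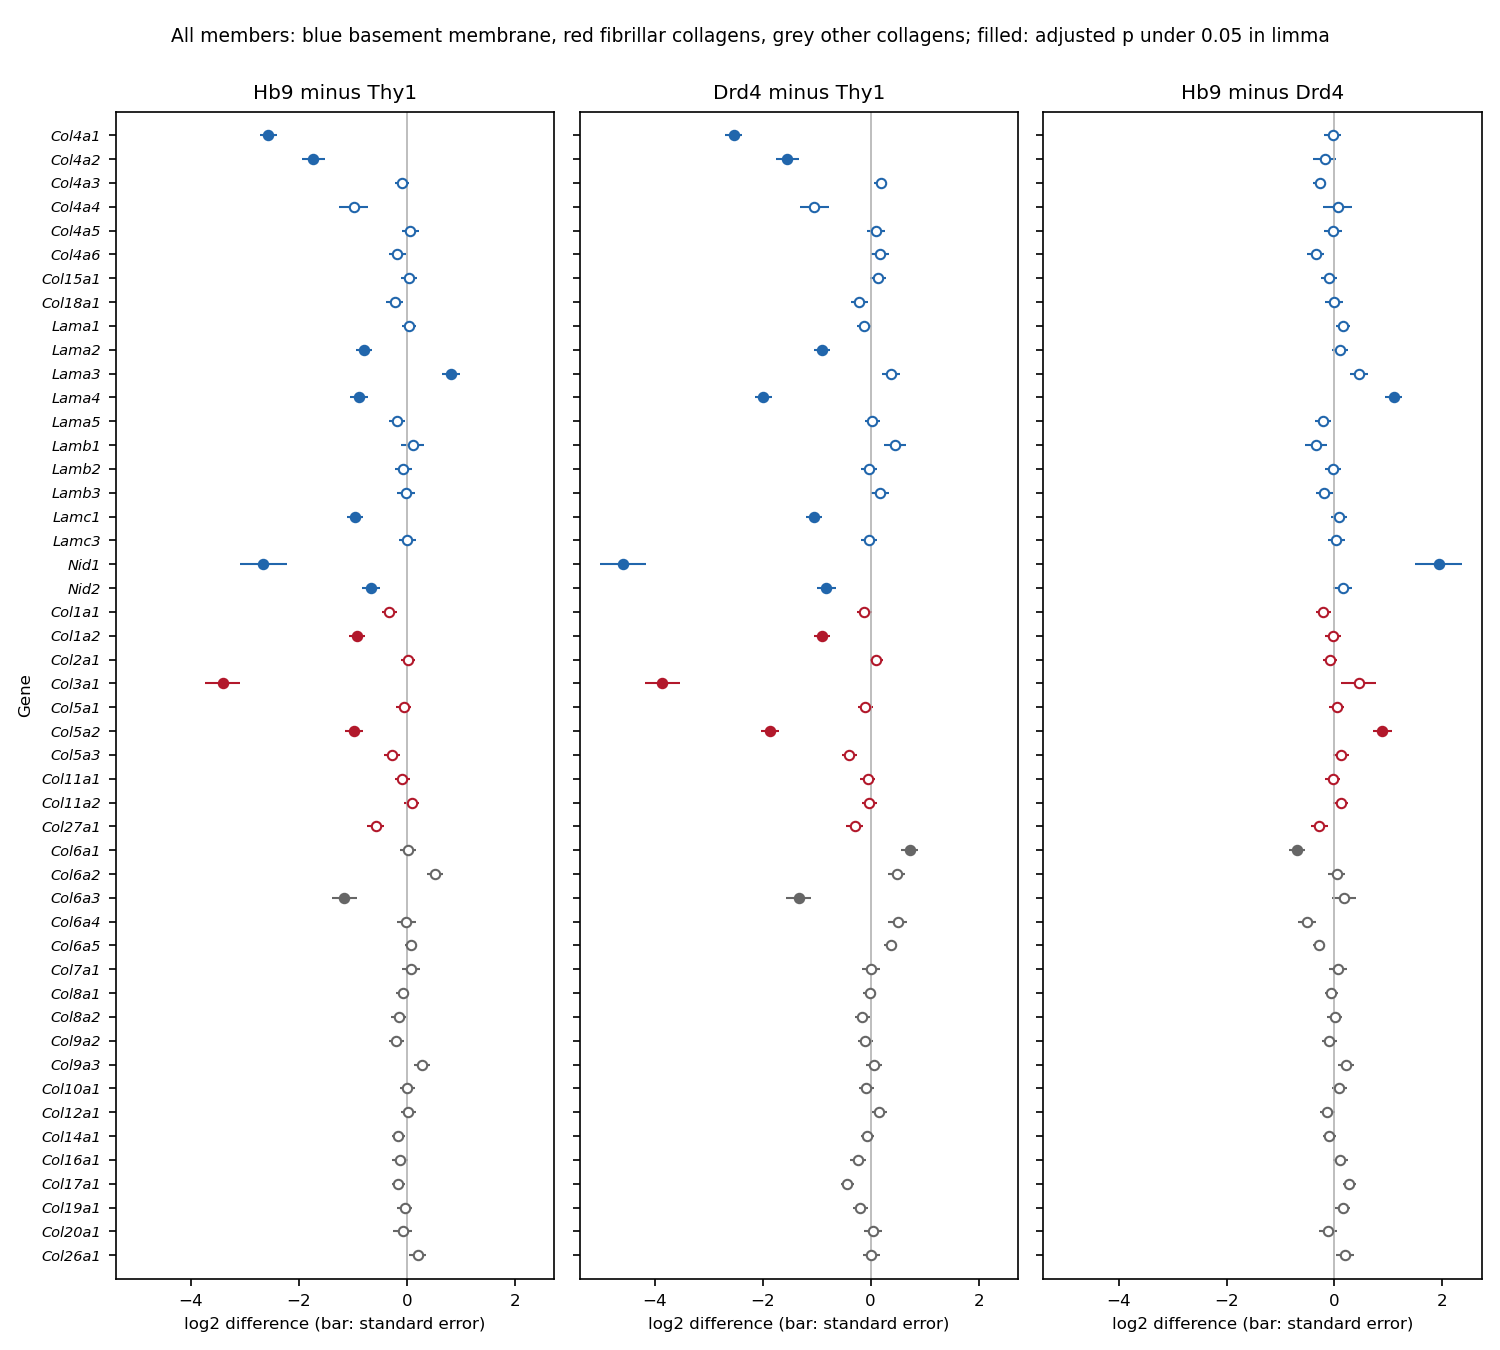
Log2 difference with its standard error for each of the 48 members in Hb9 minus Thy1, Drd4 minus Thy1 and Hb9 minus Drd4, with basement membrane members in blue, fibrillar collagens in red, other collagens in grey, and genes past the threshold filled. The filled points of both Thy1 comparisons lie left of 0 except Lama3 in Hb9 and Col6a1 in Drd4, and Col3a1, Nid1 and Col4a1 lie farthest left.

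Among the collagen IV chains, Col4a1 and Col4a2, which form the trimer present in nearly every basement membrane, were lower in each line. Their genes start head to head on chromosome 8. In the RefSeq annotation of GRCm38.p6 the first base of Col4a1, on the minus strand, is 11312826. That of Col4a2, on the plus strand, is 11312805, or 21 bases away. The annotated transcripts overlap there, with no gap between the starts. The stretch that spans both starts, chr8:11312801-11312830, is printed because the pair moved together. It is given on the plus strand, with capitals marking a GC box (GGGCGG) that lies inside the overlap.
Col4a1 and Col4a2: cggcagtgcgcGGGCGGcgtctccaagggg

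Col4a1 read 7.70 and 7.48 in Hb9, 7.71 and 7.52 in Drd4, and 10.11 and 10.20 in Thy1. Every array of either line lay more than 2 log2 units below both Thy1 arrays, while the Hb9 and Drd4 values overlapped. The differences were -2.57 ± 0.16 in Hb9 (5.92-fold, adjusted p = 0.000198 in limma) and -2.54 ± 0.16 in Drd4 (5.81-fold, adjusted p = 2.06e-05 in limma). A second probe set of Col4a1 gave -1.99 and -1.91. Col4a2 read 6.57 and 6.10 in Hb9, 6.51 and 6.53 in Drd4, and 7.80 and 8.33 in Thy1, again with no overlap between either line and Thy1. It fell by 1.73 ± 0.21 in Hb9 (adjusted p = 0.00198 in limma) and fell by 1.55 ± 0.21 in Drd4 (adjusted p = 0.00177 in limma). The calls of both genes held under every alternative run and with any array left out.

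The remaining collagen IV chains, which build the specialised trimers of the kidney filter and of some other membranes, were near background or gave no call in either line alone. Col4a4 read 5.45 and 4.64 in Hb9, 4.97 and 4.99 in Drd4, and 6.37 and 5.67 in Thy1. Neither line overlapped Thy1, the lines overlapped each other, 1 of 2 arrays in each line was above background, and neither line passed alone (adjusted p = 0.0591 for Hb9 and 0.0557 for Drd4 in limma). The mean of both lines passed at -1.01 ± 0.23 (adjusted p = 0.0353 in limma), and the other probe sets of Col4a4 were above background on 0 and 4 arrays. That call ended without Thy1 replicate 1 (-0.66, adjusted p = 0.373), without Hb9 replicate 2 (adjusted p = 0.0504), when its probe sets were averaged (-0.34, adjusted p = 0.21) and under robust moderation (adjusted p = 0.0604). Col4a3 passed background on 3 arrays, and Col4a5 and Col4a6 on all 6. Levels of Col4a3 ran from 4.99 to 5.35, of Col4a5 from 5.34 to 5.72 and of Col4a6 from 5.98 to 6.57, with none past the threshold. Col15a1 (5.50 to 5.88) and Col18a1 (5.89 to 6.36), collagens that carry heparan or chondroitin sulphate chains and sit at basement membranes, did not pass either.

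Laminin alpha chains carry much of a trimer's binding to cells. Lama4, the alpha chain of vessel and nerve laminins, read 7.19 and 6.90 in Hb9, 5.97 and 5.93 in Drd4, and 7.85 and 8.02 in Thy1. The 3 groups formed 3 separate levels with no overlap, Drd4 lowest and Thy1 highest. Lama4 fell by 0.89 ± 0.16 in Hb9 (1.85-fold, adjusted p = 0.0123 in limma) and fell by 1.99 ± 0.16 in Drd4 (3.96-fold, adjusted p = 9.16e-05 in limma). The Hb9 call ended without Hb9 replicate 2 (-0.74, adjusted p = 0.0926 in limma). A second Lama4 probe set was at background on every array and gave -0.48 and -0.46, and the mean of both probe sets put the Drd4 difference at -1.23.

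Lama2, the alpha chain of muscle and nerve basement membranes, read 5.33 and 5.16 in Hb9, 5.18 and 5.11 in Drd4, and 5.88 and 6.19 in Thy1. Both Thy1 arrays lay above all arrays of the lines. Hb9 lay at background on both arrays, which bounds the difference at at least 1.64-fold lower (adjusted p = 0.0137 in limma). In Drd4, where 1 of 2 arrays was above background, Lama2 fell by 0.89 ± 0.15 (adjusted p = 0.00526 in limma). The Hb9 call ended without Hb9 replicate 1 (adjusted p = 0.0544), Hb9 replicate 2 (0.0908) or Thy1 replicate 2 (0.0582). Lama3, the alpha chain of epithelial laminins, went the other way, with 5.67 and 5.74 in Hb9, 5.08 and 5.43 in Drd4, and 4.71 and 5.06 at background in Thy1. It was at least 1.48-fold higher in Hb9 (adjusted p = 0.0190 in limma), and in Drd4, at 0.37 ± 0.17, it missed the threshold (adjusted p = 0.342). The Hb9 rise rests on 1 probe set. The other Lama3 probe set, above background on 2 arrays, gave -0.05, with values from 5.04 to 5.36 that overlap between groups, and the mean of both gave 0.38 (adjusted p = 0.0768). It also ended without Hb9 replicate 1 (adjusted p = 0.0877), Hb9 replicate 2 (0.0888) or Thy1 replicate 1 (0.166). In the mean of both lines Lama3 was at least 1.27-fold higher (adjusted p = 0.0428), and -0.05 by the other probe set.

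Lamc1, the gamma chain shared by most laminins, read 5.91 and 6.14 in Hb9, 6.01 and 5.87 in Drd4, and 7.02 and 6.97 in Thy1. The lines overlapped each other and lay below both Thy1 arrays. The differences were -0.97 ± 0.15 in Hb9 (adjusted p = 0.00598 in limma) and -1.05 ± 0.15 in Drd4 (adjusted p = 0.00222 in limma). The second Lamc1 probe set, above background on all arrays, gave 0.09 and -0.08, and the Hb9 call ended with the mean of both (-0.44, adjusted p = 0.0643) and without Hb9 replicate 1 (-0.85, adjusted p = 0.0652). Lamb1, the beta chain of those trimers, did not pass in any comparison. It read 8.51 and 8.60 in Hb9, 9.02 and 8.77 in Drd4, and 8.13 and 8.76 in Thy1, so the Thy1 arrays spanned the Hb9 values, and both Drd4 arrays lay above both Thy1 arrays. The difference was 0.11 in Hb9 (95% interval -0.36 to 0.57) and 0.45 in Drd4 (-0.01 to 0.92). Lama5, the alpha chain of mature vessel and epithelial laminins, ran from 5.60 to 5.98 and Lamc3 from 5.13 to 5.48, and neither passed. Lama1, Lamb2 and Lamb3 were at background on every array.

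Nidogens link laminin to collagen IV. Nid1 had the largest difference of any member in Drd4. The 250 bases before the annotated start of Nid1, at chr13:13437352-13437601 on the plus strand of GRCm38.p6, are printed for this reason. Capitals mark matches on either strand to 4 motifs searched, the CCAAT box (CCAAT), the GC box (GGGCGG), the TATA motif (TATAAA) and the CTC box of matrix gene promoters (CCCTNCCCC).
Nid1: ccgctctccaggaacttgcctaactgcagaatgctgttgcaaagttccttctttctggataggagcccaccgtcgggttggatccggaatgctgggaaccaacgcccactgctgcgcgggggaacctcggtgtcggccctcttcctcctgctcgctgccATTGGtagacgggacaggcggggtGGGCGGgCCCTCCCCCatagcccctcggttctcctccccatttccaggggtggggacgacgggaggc

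In this window a CCAAT box lay 91 bases before the start on the opposite strand, a GC box 67 bases before it and a CTC box 60 bases before it. Of 37 member windows in the RefSeq set, which cover 34 of the 48 members, 59.5% held a GC box and 18.9% a CTC box, against 32.7% and 8.52% of all 32851 windows. The CCAAT box was in 35.1% of member windows and 33.8% of all, and the TATA motif in 10.8% and 12.4%. These are matches of letters, given as a description.

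Nid1 read 6.82 and 6.49 in Hb9, 5.62 and 3.83 in Drd4, and 9.26 and 9.37 in Thy1. Thy1 was highest on both arrays and Drd4 lowest, the groups did not overlap, and the Drd4 replicates differed from each other more than in any other group. Nid1 fell by 2.66 ± 0.43 in Hb9 (6.32-fold, adjusted p = 0.00754 in limma) and fell by 4.59 ± 0.43 in Drd4 (adjusted p = 0.000187 in limma). On Drd4 replicate 2 it was at background, and with that array set to its background reference the difference was -3.91. The Drd4 difference was -5.49 without Drd4 replicate 1 and -3.69 without Drd4 replicate 2, and -3.88 with an offset of 16 added before log2. A second Nid1 probe set read 5.29 and 4.92 in Hb9, 5.56 and 4.83 in Drd4, and 6.64 and 6.67 in Thy1. There both Hb9 arrays and Drd4 replicate 2 lay at background, and Nid1 was at least 2.53-fold lower in Hb9 and 2.42-fold lower in Drd4. Averaged over its 3 probe sets, Nid1 differed by -1.47 (adjusted p = 0.0127) and -2.09 (adjusted p = 0.00154), and the Hb9 call ended under robust moderation (adjusted p = 0.0689).

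Nid2, the second nidogen, stayed dim. It read 4.10 and 4.51 in Hb9, 4.24 and 4.07 in Drd4, and 4.81 and 5.15 in Thy1, with 1 Thy1 array above background and no other. The calls (adjusted p = 0.0451 in Hb9 and 0.0185 in Drd4, in limma) therefore carry no fold. The Hb9 call ended under 7 alternatives, with adjusted p from 0.0538 to 0.303, among them without Hb9 replicate 1 (0.303), Thy1 replicate 1 (0.0781) or Thy1 replicate 2 (0.163). The Drd4 call ended without Drd4 replicate 2 (0.0732) or Thy1 replicate 2 (0.15).

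**Figure D2:**
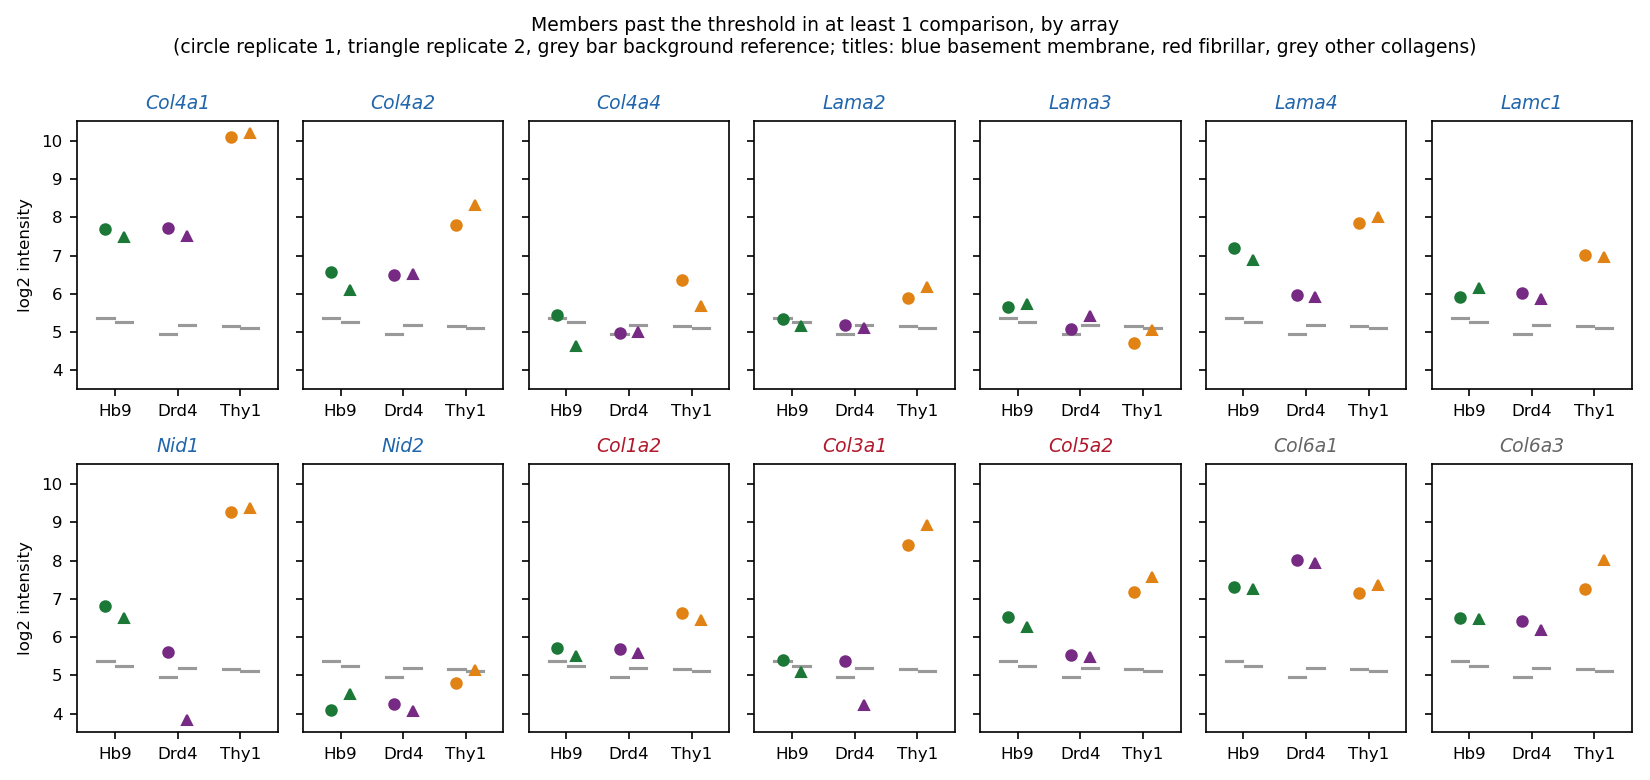
Log2 intensity of each member past the threshold in at least 1 comparison, by group, with replicate 1 as a circle, replicate 2 as a triangle and the background reference of each array as a grey bar. Col4a1, Nid1 and Col3a1 sit far above background in both Thy1 replicates, Lama4 and Col5a2 form 3 separate levels, and Nid1 and Col3a1 differ between the Drd4 replicates.

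Fibrillar collagens were lower in 3 genes, Col3a1, Col1a2 and Col5a2. Col3a1 forms the fine fibres of vessel walls and connective tissue, and Col1a2 is the second chain of collagen I, the main fibre of skin, tendon and bone. The 250 bases before each start are printed because Col3a1 had the largest fall among members in Hb9 and to set it beside another fibrillar chain that moved less. They are plus strand sequences of GRCm38.p6, at chr1:45311288-45311537 for Col3a1 and chr6:4505368-4505617 for Col1a2, with capitals marking the motifs named above.
Col3a1: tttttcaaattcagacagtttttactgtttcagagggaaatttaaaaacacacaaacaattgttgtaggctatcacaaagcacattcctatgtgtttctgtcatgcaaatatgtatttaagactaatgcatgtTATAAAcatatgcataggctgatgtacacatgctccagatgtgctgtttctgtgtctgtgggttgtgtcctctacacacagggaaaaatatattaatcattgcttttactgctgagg
Col1a2: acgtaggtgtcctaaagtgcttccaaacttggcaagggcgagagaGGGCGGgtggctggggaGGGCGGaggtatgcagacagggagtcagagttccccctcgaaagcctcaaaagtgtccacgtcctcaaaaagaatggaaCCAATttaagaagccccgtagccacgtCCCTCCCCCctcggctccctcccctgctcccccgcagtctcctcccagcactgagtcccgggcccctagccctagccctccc

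The Col3a1 window held 1 match, a TATA motif 117 bases before the start. The Col1a2 window held GC boxes 205 and 188 bases before the start, a CCAAT box 109 bases before it and a CTC box 82 bases before it.

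Col3a1 read 5.41 and 5.08 in Hb9, 5.38 and 4.22 in Drd4, and 8.39 and 8.93 in Thy1. It stood well above background on both Thy1 arrays and on 1 of 2 arrays in each line, where it was close to the reference. The differences were -3.41 ± 0.32 in Hb9 (adjusted p = 0.000588 in limma) and -3.86 ± 0.32 in Drd4 (adjusted p = 0.000103 in limma). With the array at background in each line set to its reference they were -3.33 and -3.37. Without Drd4 replicate 1 the Drd4 difference was -4.44, and without Drd4 replicate 2 it was -3.29. At the second probe set, with Thy1 at 6.66 and 6.42, both Hb9 arrays and Drd4 replicate 2 lay at background, and Col3a1 was at least 2.33-fold lower in Hb9 and 2.55-fold lower in Drd4. With the mean of both probe sets it was -2.59 and -2.73, and with an offset of 16 it was -3.24 in Drd4.

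Col1a2 read 5.71 and 5.50 in Hb9, 5.69 and 5.58 in Drd4, and 6.62 and 6.43 in Thy1, with each line below both Thy1 arrays. It fell by 0.92 ± 0.15 in Hb9 (1.90-fold, adjusted p = 0.00711 in limma) and fell by 0.89 ± 0.15 in Drd4 (1.86-fold, adjusted p = 0.00512 in limma). Another Col1a2 probe set was at background on all arrays of the lines and at least 2.05-fold lower in Hb9 and 2.44-fold lower in Drd4. The Hb9 call ended without Hb9 replicate 2 (-0.82, adjusted p = 0.0578) or Thy1 replicate 1 (-0.83, adjusted p = 0.0579). Col1a1, the first chain of collagen I, stayed near background, at 5.08 ± 0.10 (SD) in Hb9, 5.28 ± 0.10 in Drd4 and 5.40 ± 0.14 in Thy1. Its difference was -0.33 in Hb9 (95% interval -0.64 to -0.02) and -0.12 in Drd4 (-0.43 to 0.19), neither past the threshold.

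Collagen V regulates how fibres of collagen I assemble, and its alpha 2 chain gene, Col5a2, neighbours Col3a1 on chromosome 1. Col5a2 read 6.54 and 6.26 in Hb9, 5.54 and 5.48 in Drd4, and 7.18 and 7.56 in Thy1. The 3 groups formed separate levels, in the order seen for Lama4. The differences were -0.98 ± 0.17 in Hb9 (1.97-fold, adjusted p = 0.0112 in limma) and -1.86 ± 0.17 in Drd4 (3.64-fold, adjusted p = 0.000185 in limma). A second probe set gave -0.54 in Hb9 and, with both Drd4 arrays at background, a fall of at least 3.07-fold in Drd4, and the Hb9 call ended without Hb9 replicate 2 (-0.84, adjusted p = 0.0769). Col5a1, the partner chain, did not pass at its brightest probe set, with -0.06 and -0.10, while a dimmer one, above background in Thy1 only, read 4.99 and 5.21 in Hb9, 4.89 and 4.77 in Drd4, and 5.72 and 6.31 in Thy1. Col27a1 differed by -0.58 ± 0.15 in Hb9 and missed the threshold (adjusted p = 0.0544). Col5a3 ran from 5.14 to 5.75, Col11a2 from 5.51 to 5.78 and Col2a1 from 4.94 to 5.16 without a call, and Col11a1 was at background on every array.

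Collagen VI chains gave calls in both directions. Col6a3, the long chain of the trimer, read 6.49 and 6.47 in Hb9, 6.41 and 6.19 in Drd4, and 7.25 and 8.02 in Thy1, with both lines below Thy1. It fell by 1.16 ± 0.23 in Hb9 (2.23-fold, adjusted p = 0.0164 in limma) and fell by 1.33 ± 0.23 in Drd4 (2.52-fold, adjusted p = 0.00623 in limma). The Hb9 call ended without Hb9 replicate 1 (adjusted p = 0.0912) or Hb9 replicate 2 (0.0736). Col6a1 read 7.30 and 7.26 in Hb9, 8.02 and 7.93 in Drd4, and 7.15 and 7.36 in Thy1, so Drd4 stood above the others, which overlapped. It was higher in Drd4 than in Thy1 by 0.72 ± 0.15 (1.65-fold, adjusted p = 0.0214 in limma), a call that ended without Drd4 replicate 1 (adjusted p = 0.1), Drd4 replicate 2 (0.0618) or Thy1 replicate 1 (0.14). Col6a2, the neighbour of Col6a1 on chromosome 10, read 8.08 to 8.25 in the lines and 7.58 and 7.69 in Thy1. Neither line overlapped Thy1, but the differences of 0.53 ± 0.15 (95% interval 0.19 to 0.87) and 0.48 ± 0.15 (0.14 to 0.83) did not pass (adjusted p = 0.0712 and 0.129 in limma). Another Col6a2 probe set, above background on all 6 arrays, gave 0.04 and 0.06.

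The remaining other collagens gave no call. Col7a1, the anchoring fibril collagen of skin, ran from 6.14 to 6.48, Col9a3 from 6.45 to 6.90, Col16a1 from 6.06 to 6.44 and Col12a1 from 5.82 to 6.08. A dimmer Col9a3 probe set, above background on 3 arrays, read 5.88 and 5.74 in Hb9, 4.99 and 4.95 in Drd4, and 4.67 and 4.98 in Thy1. Col20a1 (5.47 to 5.87) and Col26a1 (5.26 to 5.74) were above background on all arrays, Col6a4 on 3, Col14a1 on 2 and Col9a2 on 1. Col6a5, Col8a1, Col8a2, Col10a1, Col17a1 and Col19a1 were at background throughout. Over the 34 members that passed in no comparison, differences ran from -0.58 to 0.53 in Hb9 against Thy1 and from -0.43 to 0.50 in Drd4 against Thy1. Of these 34, 10 were at background on every array, so no change in them could be read.

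The lines were also set against each other. In Hb9 against Drd4, 3 members were higher and 1 was lower, where 4.06% of all genes were higher and 2.06% lower, 6.12% in either direction (739 and 374 genes, or 539 and 431 with each array centred on its median). Lama4 was higher in Hb9 by 1.10 ± 0.16 (2.14-fold, adjusted p = 0.00329 in limma), and this call held with any array left out. Nid1 was higher by 1.93 ± 0.43 (adjusted p = 0.0282 in limma), with Drd4 replicate 2 at background. Its second probe set, with both Hb9 arrays at background, could not be read for this difference. The difference was 2.83 without Drd4 replicate 1 and 1.04 without Drd4 replicate 2. The Nid1 call ended without Hb9 replicate 1 (adjusted p = 0.152) or Hb9 replicate 2 (0.0696), when its probe sets were averaged (0.62, adjusted p = 0.177) and under robust moderation (0.156). Col5a2 was higher in Hb9 by 0.89 ± 0.17 (1.85-fold, adjusted p = 0.0152 in limma), and the call ended without Hb9 replicate 1 (0.75, adjusted p = 0.141). Col6a1 was lower in Hb9, with a difference of -0.70 ± 0.15 (1.62-fold, adjusted p = 0.0261 in limma), a call that ended without any 1 of the Hb9 or Drd4 arrays, with adjusted p of 0.151, 0.146, 0.129 and 0.0539. For Col4a1 the difference between lines was -0.03 (95% interval -0.38 to 0.32), and for Lamc1 it was 0.09 (-0.25 to 0.42). Col3a1 differed by 0.45 (-0.27 to 1.17), an interval wide enough to hold a change of more than 2-fold.

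Genes that make, bind, sense or cut these proteins were read from lists of their own. Counts in them stand beside 3.19% of all genes lower and 3.52% higher in Hb9, and 3.96% lower and 1.51% higher in Drd4. Between the lines, 4.06% of all genes were higher in Hb9 and 2.06% lower. Of 25 genes of collagen synthesis and crosslinking, 1 was lower in each line and 0 higher. That gene was Serpinh1, the chaperone of collagen folding, which read 7.43 and 7.36 in Hb9, 6.94 and 5.99 in Drd4, and 8.75 and 9.03 in Thy1. It fell by 1.49 ± 0.27 in Hb9 (adjusted p = 0.0111 in limma) and fell by 2.42 ± 0.27 in Drd4 (adjusted p = 0.000466 in limma), with no overlap between groups. The Hb9 call ended without Hb9 replicate 1 (adjusted p = 0.056) or Hb9 replicate 2 (0.0548). Prolyl and lysyl hydroxylases, lysyl oxidases and procollagen peptidases in that list gave no call.

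Of 17 basement membrane partners, 1 was lower in Hb9 and 2 in Drd4. Sparc, a secreted protein that binds collagen IV, read 6.90 and 6.75 in Hb9, 7.24 and 6.30 in Drd4, and 9.40 and 8.86 in Thy1. It fell by 2.31 ± 0.28 in Hb9 and fell by 2.37 ± 0.28 in Drd4 (adjusted p = 0.00201 and 0.00079 in limma). Npnt, an integrin ligand of basement membranes, read 7.13 and 7.54 in Hb9, 5.55 and 4.97 in Drd4, and 7.97 and 8.01 in Thy1. In Drd4, with 1 of 2 arrays above background, it was at least 6.15-fold lower (adjusted p = 7.54e-05 in limma), and it was 2.08 ± 0.21 higher in Hb9 than in Drd4 (adjusted p = 0.000378). Ntn4, a laminin-related netrin, was 0.92 ± 0.17 higher in Hb9 than in Drd4 (adjusted p = 0.0107 in limma). Hspg2, which encodes perlecan, ran from 7.91 to 8.13 with no call.

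Interstitial matrix partners gave the most calls among these lists. Of 17 genes, 7 were lower and 1 higher in Hb9, and 7 were lower and 0 higher in Drd4. Mgp, an inhibitor of calcification found in vessel walls, read 6.79 and 5.99 in Hb9, 5.40 and 4.49 in Drd4, and 9.03 and 9.12 in Thy1. It fell by 2.69 ± 0.31 in Hb9 and fell by 4.13 ± 0.31 in Drd4 (adjusted p = 0.00153 and 5.81e-05 in limma), with 1 of 2 Drd4 arrays above background and a fall there of at least 13.7-fold. Postn, a matricellular protein that binds collagen fibres, differed by -2.28 ± 0.21 in Hb9 and was at least 9.30-fold lower in Drd4, where 1 of 2 arrays was above background. Fn1, fibronectin, differed by -1.66 ± 0.20 and -2.12 ± 0.20. Aspn, a small leucine-rich proteoglycan, was at background in both lines and at least 3.53-fold and 4.18-fold lower. Bgn, a related proteoglycan, differed by -1.51 ± 0.18 in Hb9 and by -2.12 ± 0.18 in Drd4. Vcan, a large proteoglycan, was the exception, 1.34 ± 0.32 higher in Hb9 than in Thy1 (adjusted p = 0.0361) and 1.67 ± 0.32 higher than in Drd4 (adjusted p = 0.0139), and the count of genes higher in Hb9 against Thy1 fell to 0 without Hb9 replicate 1, Hb9 replicate 2 or Thy1 replicate 1. Between the lines Mgp, Postn, Fbn2 and Vcan were higher in Hb9, by 1.35 to 1.67, and that count of 4 fell to 1 without Hb9 replicate 1.

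Of 14 receptors of collagen and laminin, 2 were lower in Hb9 and 3 in Drd4. Itga1, a collagen IV receptor subunit, read 5.83 and 5.82 in Hb9, 5.05 and 4.64 in Drd4, and 7.22 and 7.84 in Thy1, with a difference of -1.70 ± 0.21 in Hb9 and a fall of at least 5.29-fold in Drd4, where 1 of 2 arrays was above background (adjusted p = 0.00219 and 7.97e-05 in limma). Itga6, a laminin receptor subunit, read 7.72 and 8.01 in Hb9, 7.27 and 5.37 in Drd4, and 9.53 and 9.29 in Thy1. Its difference passed in Drd4 (-3.09 ± 0.46, adjusted p = 0.00274 in limma). Lair1, an immune cell receptor for collagen, was at least 2.20-fold lower in Hb9 and at least 2.37-fold lower in Drd4, and the Hb9 count of this list fell to 1 without Hb9 replicate 1. Itga1 was also 0.98 ± 0.21 higher in Hb9 than in Drd4 (adjusted p = 0.025), a count of 1 that went to 0 without Hb9 replicate 1, Hb9 replicate 2 or Drd4 replicate 2 and to 2 without Drd4 replicate 1.

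Matrix proteases and inhibitors went both ways, with 2 of 14 lower and 2 higher in Hb9, and 4 lower and 1 higher in Drd4. Mmp17, a membrane-anchored protease, read 6.93 and 6.66 in Hb9, 9.64 and 9.79 in Drd4, and 6.39 and 6.72 in Thy1, which put Drd4 3.16 ± 0.18 above Thy1 (adjusted p = 1.46e-05 in limma). Timp3, a protease inhibitor that stays bound to the matrix, was lower in Hb9 (adjusted p = 0.00329 in limma) and fell by 0.94 ± 0.14 in Drd4 (adjusted p = 0.00248 in limma). Mmp16 fell by 1.36 ± 0.18 in Hb9, where Mmp9, a gelatinase that cuts denatured collagen and collagen IV, was higher by 0.97 ± 0.16 and Reck, which restrains such proteases, by 0.66 ± 0.15. The 2 higher genes in Hb9 fell to 0 without Hb9 replicate 1 and to 1 without Hb9 replicate 2, Thy1 replicate 1 or Thy1 replicate 2. In Drd4 the differences were -1.17 ± 0.21 for Adamts9, -1.01 ± 0.19 for Adamts5 and -0.94 ± 0.15 for Mmp14.

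**Figure D3:**
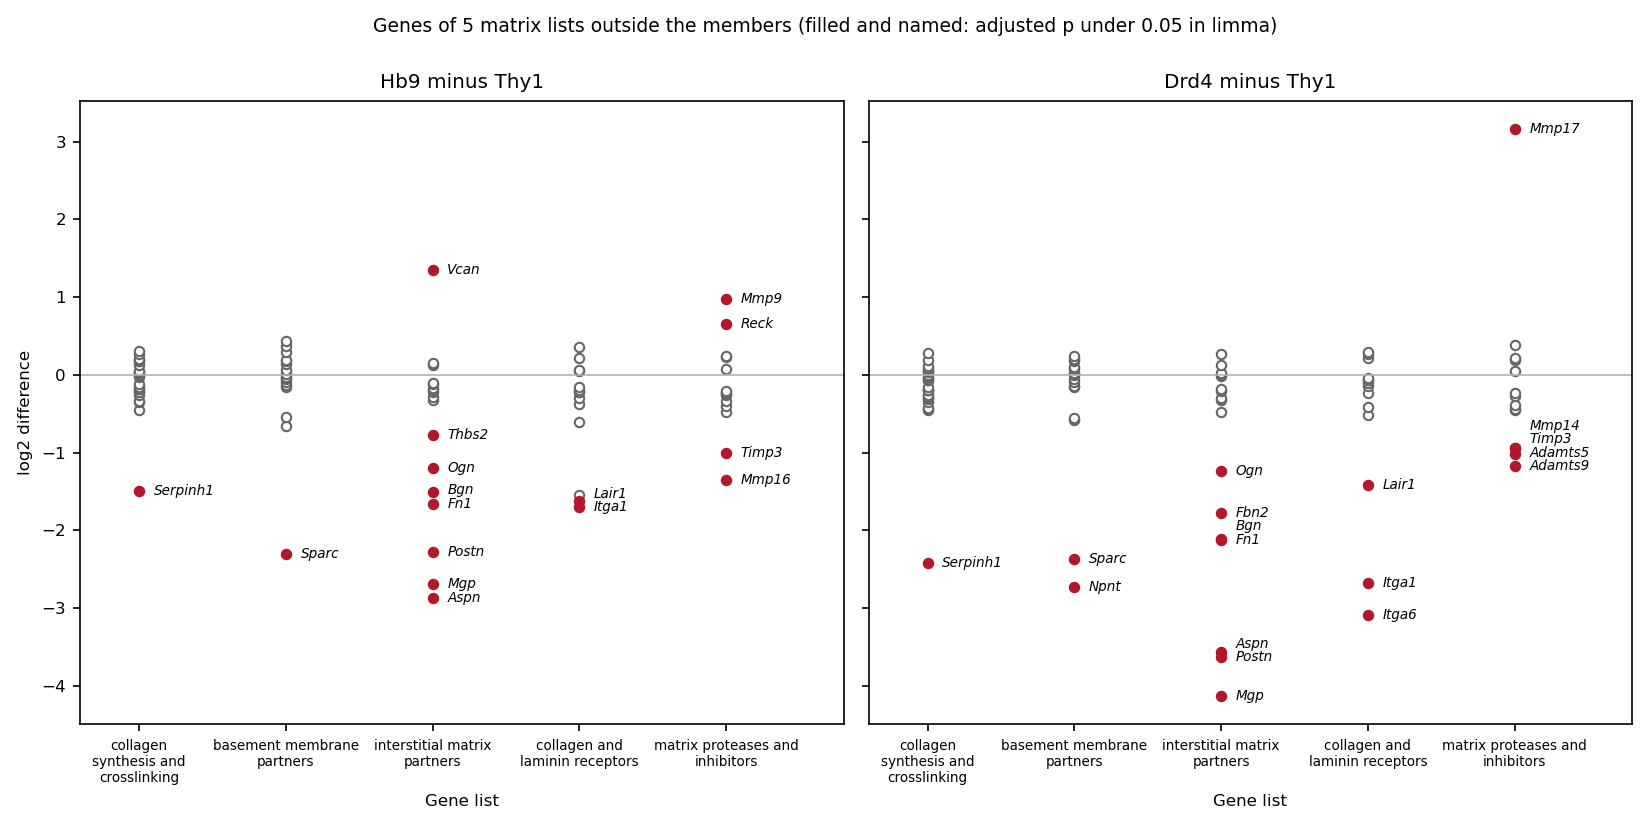
Log2 difference of each gene of 5 matrix lists outside the members, in Hb9 minus Thy1 and Drd4 minus Thy1, with genes past the threshold in limma filled and named. Genes of collagen synthesis cluster near 0 except Serpinh1, interstitial partners reach -4.13 (Mgp in Drd4), and Mmp17 lies at 3.16 in Drd4.

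Markers of cells that could be present in a retinal sort were read on the same arrays. Their counts stand beside 3.19% of all genes lower and 3.52% higher in Hb9, and 3.96% lower and 1.51% higher in Drd4. Of 14 pericyte and vessel wall genes, 9 were lower in Hb9 and 10 in Drd4, with median differences of -2.04 and -2.08. Pdgfrb, the receptor that defines pericytes, read 6.82 and 6.20 in Hb9, 5.93 and 3.14 in Drd4, and 9.69 and 9.86 in Thy1, the order seen for Nid1. Rgs5 read 10.47 and 10.06 in Hb9, 9.50 and 5.01 in Drd4, and 12.39 and 12.58 in Thy1. Pdgfrb passed in each line (-3.27 ± 0.66 in Hb9 and at least 18.5-fold lower in Drd4) and Rgs5 in Drd4 (at least 35.2-fold lower). Drd4 replicate 2, the lowest array for Pdgfrb and Rgs5, was at background in Pdgfrb, Rgs5, Nid1 and Col3a1. It was the lowest array for 8 of the 12 members called lower against Thy1, while Hb9 replicate 2 was the lowest for Col4a1, Col4a2, Col4a4 and Col1a2. Those 12 were picked for being lower in the lines, so their lowest array was bound to be one of the lines. Some margins were small, such as 5.97 and 5.93 on the Drd4 arrays in Lama4, and Nid2 was at background on both. What the tally reflects was not tested. Over all 48 members the lowest array was Hb9 replicate 2 for 14 and Drd4 replicate 2 for 11. Between the lines, 1 of these 14 genes was higher in Hb9 (Higd1b), and 5 were without Drd4 replicate 1, 2 without Drd4 replicate 2 and 0 without Hb9 replicate 1.

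Over all genes 3.19% were lower in Hb9 and 3.96% in Drd4. Of 16 endothelial genes, 1 was lower in Hb9 (Flt1, -0.98 ± 0.17) and 2 were lower in Drd4. Their linear sum ran from 745 to 815 in the lines and from 896 to 967 in Thy1. Of the 16 genes, 6 to 8 lay above background on the arrays of the lines and 8 or 9 on those of Thy1. Pecam1, Cldn5 and Tek were at background on every array and Cdh5 on all but 1 Thy1 array. Cldn5 and Tek were picked after their values were seen, and Kdr, another defining endothelial gene, is not given here. The named genes therefore do not stand for the whole list. Of 11 genes of fibroblasts and meninges, 2 were lower in Hb9 and 4 in Drd4. Their linear sums were 293 to 307 in Hb9, 254 to 280 in Drd4 and 359 to 412 in Thy1. Above background were 1 gene on each Hb9 array, 2 and 0 on the Drd4 arrays, and 3 and 7 on the Thy1 arrays. Lum was at background throughout. Ogn stood above background on both Thy1 arrays (mean 5.35) and on no array of the lines. It was at least 1.02-fold lower in Hb9 and 1.21-fold lower in Drd4. Dcn was also above background on both Thy1 arrays (mean 5.53) and differed by -0.28 in Hb9 and -0.21 in Drd4.

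Of 13 microglial genes, 10 were lower in each line, with medians of -2.20 and -2.14. Their sums were 1707 to 2072 in Hb9, 1129 to 3022 in Drd4 and 6577 to 11311 in Thy1. The count of 10 in Hb9 fell to 6 without Thy1 replicate 1 and with robust moderation, as did that in Drd4 with robust moderation. Of 11 Müller glia and progenitor genes, 2 were lower in each line (Apoe and Vim), and Dkk3 was higher in Drd4. Of 6 genes on the astrocyte list, 1 was higher in Hb9 (Pdgfa) and 1 lower in Drd4 (Pdgfra). Pdgfra is also on the list of fibroblasts and meninges, so neither gene reads as particular to astrocytes here. Of 18 ganglion cell genes, 1 was lower and 1 higher in Hb9, and 2 were lower and 3 higher in Drd4, with linear sums between 39007 and 42484 on all arrays. The part of pericyte, microglial or other cells in the differences of the matrix members was not tested.

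**Figure D4:**
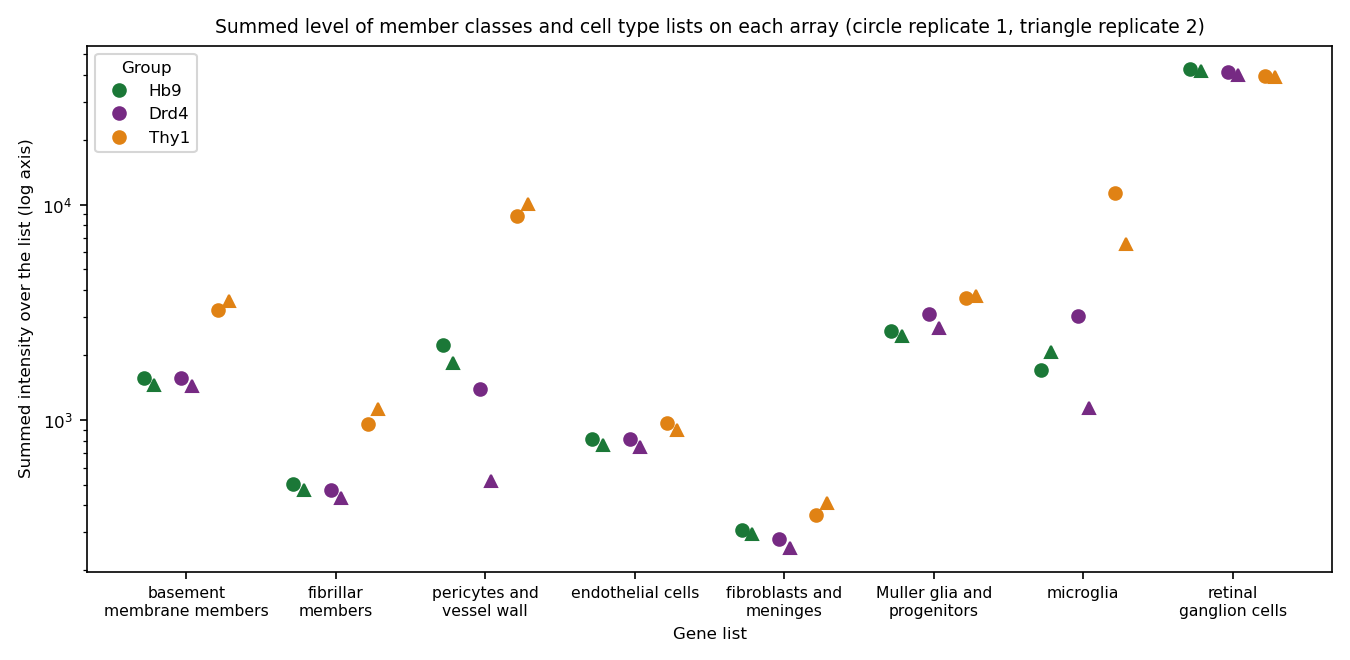
Summed linear intensity (log axis) of the member classes and cell type lists on each array, coloured by group, with replicate 1 as a circle and replicate 2 as a triangle. The pericyte and microglial lists are highest on both Thy1 arrays, the basement membrane and fibrillar members are higher there too, and ganglion cell genes lie between 39007 and 42484 on all arrays.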

How the data were processed

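RNA from sorted retinal cells was extracted with a PicoPure kit, amplified in 2 rounds, labelled with biotin and hybridised to Affymetrix mouse arrays, per the labels' protocols. The authors deposited linear intensities, 1 per probe set and array. Their software, background correction, summarisation and normalisation are steps not given in the sources used here. No value was at or below 0, and log2 of the deposited intensities was taken without an offset. Of 45101 probe sets, 64 are controls, 34945 have 1 gene in the platform annotation, 932 have several and 9160 have none named. By Entrez identifier, 34741 matched RefSeq and 0 symbols changed. The probe set with the highest mean over the 6 arrays stood for each gene, which gave 18193 genes. The 48 members have 93 probe sets, and 18 members have 1.

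The fit used limma 3.58.1 (R 4.3.3), with a mean per group, an intensity trend, 3 residual and 6.98 prior degrees of freedom, two-sided tests and Benjamini-Hochberg adjustment over all genes. The number of arrays limits precision: the median standard error of a difference was 0.15, and the smallest p of an exact permutation test, 2 arrays against 2, is 0.333. The procedure was tested on simulated data. Where arrays of the lower group lay at background, a fold is a bound that sets those arrays to the background reference.

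Members and the 12 other lists (170 of 181 genes measured) were chosen with earlier results of these data known. Members past the threshold in any comparison are named, the remaining ones by level or group, with up to 4 genes per other list and comparison and fixed defining markers. Hspg2, Cldn5, Tek, Lum, Ogn and Dcn were named after their values were seen. Promoter windows, with 250 bases before a start searched, come from RefSeq (GRCm38.p6) for 34 members.

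Alternatives were quantile normalisation, median centring, the mean of all probe sets, probe sets without shared-sequence suffixes preferred, dim genes left out, no trend, robust moderation, array weights, the replicate number as a block, an offset of 16, changes of at least 1 only, only the compared groups, and each array left out.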

Additional observations from a re-analysis of the deposited data

Results flagged for a closer look

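In 4 of 48 members the difference from Thy1 was not the same in both lines, by a direct test of Hb9 against Drd4 in limma. That test called 6.12% of all genes in either direction. The size was 1.93 ± 0.43 in Nid1 (adjusted p = 0.0282), 1.10 ± 0.16 in Lama4 (adjusted p = 0.00329), 0.89 ± 0.17 in Col5a2 (adjusted p = 0.0152) and -0.70 ± 0.15 in Col6a1 (adjusted p = 0.0261). Both arrays of one line lay on the same side of both arrays of the other in each of the 4. In Lama4 and Col5a2 the direction against Thy1 was the same in both lines and the fall larger in Drd4, and in Col6a1 Drd4 alone stood apart from Thy1. For Nid1 the size depended on the Drd4 replicate, with 2.83 without Drd4 replicate 1 and 1.04 without Drd4 replicate 2, which lay at background. The calls of Nid1 and Col6a1 each ended under 4 alternatives, that of Col5a2 under 1 and that of Lama4 under 0.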

How the results depend on the processing

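Over 44 calls of members and Serpinh1 and 734 pairs of a call and an alternative, 682 kept the call, 50 lost it and 2 reversed direction. Of the 44, 26 were kept under every alternative run. The reversals are Lama3 at -0.054 in Hb9 minus Thy1 (adjusted p = 0.877) and -0.052 in the mean of both lines minus Thy1 (adjusted p = 0.894), with probe sets without shared-sequence suffixes preferred, which replaces its probe set by another. With only changes of at least 1 counted, members lower in Hb9 minus Thy1 went from 11 to 5, basement membrane ones from 7 to 3 and fibrillar ones from 3 to 1, and members higher went from 1 to 0 in Hb9, in Drd4 and in the mean, as did the member lower in Hb9 minus Drd4. Members higher in Hb9 minus Thy1 numbered 2 with the mean of all probe sets, neither of them Lama3. They numbered 2 with no intensity trend and 0 with unique probe sets preferred. In the mean of both lines they numbered 2 with median centring, 0 with the mean of all probe sets and 0 with unique probe sets preferred. The cause was not tested.

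With arrays left out in turn, members lower ranged from 6 to 13 in Hb9 minus Thy1, from 10 to 12 in Drd4 minus Thy1, from 0 to 1 in Hb9 minus Drd4 and from 11 to 12 in the mean of both lines. Members higher ranged from 0 to 1 in each Thy1 comparison and from 1 to 4 in Hb9 minus Drd4, and fibrillar members lower in Hb9 minus Thy1 from 1 to 4. With the replicate number as a block, members lower numbered 13 in Hb9 minus Thy1 and 12 in Drd4 minus Thy1, and 1 lower and 3 higher in Hb9 minus Drd4, and no call of a member was lost. Deviations of replicate 1 correlated at -0.28 between Hb9 and Drd4, -0.19 between Hb9 and Thy1 and 0.37 between Drd4 and Thy1, so the numbers were not taken to pair the arrays. Signal over background limits the 10 members at background on every array, for which no change could be read.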
